A study of Homo sapiens with 74 samples.

Results

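The genes described are 210 human genes that the deposited tables list with a single exon entry and that were expressed in control cells of at least 1 of 2 leukaemia lines. A single entry is read here as the absence of an intron in that annotation. RefSeq places the start of some elsewhere, for GPR174 by 26284 bases, so the listed exon may not be the whole gene. The genes were chosen by their measured control level: the count divided by the column total (in counts per 1000000, CPM) had to average at least 5 over the control libraries 1 and 2 of K562 or of HEL. Names starting with HIST, ZNF, MIR, SNOR or LINC were left out. Of 28131 genes in the tables, 3930 had a single entry, 241 of those reached the level, and 210 remained. They comprise 176 genes at the level in K562 and 147 in HEL, with 113 in both, 63 in K562 alone and 34 in HEL alone. The control level chose the genes, and control libraries also enter each comparison with a control, so genes that were silent in controls and rose later are outside the set. The comparison of the 2 knockouts with each other uses no control library, so the values that chose the genes do not enter it. The rule still sets which genes are compared there, and all genes tested, used as background, did not pass it. Just inside the limit were PRORSD1P at 5.07, FCF1P2 at 5.07 and LOC103344931 at 5.10 CPM, and just outside it PAQR9 at 4.87, NFYC-AS1 at 4.99 and TMEM183B at 4.99 CPM. A gene listed with several identical single-exon transcripts, such as JUND or CEBPB, counts as having several entries and is not in the set.

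A total of 5 groups of messenger RNA libraries were used. K562 cells, from chronic myeloid leukaemia, were wild type controls, DOT1L-/- or ENL-/-, with 2 distinct control libraries and 3 libraries of each knockout (KO). HEL cells, from erythroleukaemia, were control or carried a DOT1L knockdown (KD), with 2 libraries each. DOT1L is the enzyme that methylates lysine 79 of histone H3, and ENL (gene MLLT1) is a reader of acetylated histones in its complex. Whether the libraries of a group came from separate cultures or clones is not stated, so the p-values measure the spread between these libraries, which may be technical. The ENL KO labels name no sequencing lane whereas those of the other K562 groups do, and a batch difference cannot be told apart from the knockout.

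Genes without introns escape splicing and the enhancement that splicing gives to transcription, export and translation. Many are short, carry their own promoter, and respond rapidly to signals, such as the AP-1 subunit JUN. Others are retrogenes, copies of spliced messengers that were reverse transcribed into the genome, and a further part are processed pseudogenes, antisense and divergent noncoding RNAs, and RNAs made by RNA polymerase III. DOT1L methylation lies over the first part of transcribed gene bodies, and the complex has been tied to transcription initiation and elongation.

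By the RefSeq annotation, 142 of the genes code for protein, 30 are noncoding, 25 are pseudogenes, 6 are ribosomal, small cytoplasmic or small nuclear RNAs, and 7 had no match. Genes were matched by symbol or unique synonym, and KIAA0754 is among the 142 only as a synonym of MACF1, so its class is doubtful. The median exonic length was 2666 bases (range 200 to 91671) against 3558 bases in 10667 genes with 2 or more exon entries that passed the same level and name rule. RefSeq promoters (GRCh38.p14, 250 bases before to 50 after the start) were matched to 137 of the genes, and in 107 the start lay within 100 bases of the one in the tables, on the same strand. The median ratio of observed to expected CG dinucleotides in these 107 promoters was 0.845, against 0.58 over all 27305 promoters, and the median GC content was 63.3% against 58.3%. The letters TATAAA, searched on the strand of the gene from 50 to 10 bases before the start, were found in 5 of the 107 (4.67%) against 2.81% of all promoters. The 5 were H1FX, H2AFX, JUNB, NRARP and ADRA2A. TGANTCA, searched on both strands over the whole window, was found in 4 (SFN, HSPA6, CHST14 and GABPB1-AS1; 3.74%) against 7.76% of all. CCAAT was found in 36.4% against 35.7%, and AGATAA in 3.74% against 10.5%, both searched on both strands. A match of letters is a description and not a binding site.

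The 250 bases before the start of 5 genes that the results return to are printed in lower case on the strand of the gene, with capitals for the feature named. H1FX (chr3:129316287-129316536, minus strand) has TATAAA 31 bases before the start, and SFN (chr1:26862899-26863148, plus strand) has TGATTCA, which is TGANTCA, 170 bases before it. TAF7 (chr5:141320785-141321034, minus strand) and SOX4 (chr6:21593501-21593750, plus strand) have their CG dinucleotides in capitals, 21 in TAF7 and 8 in SOX4. B3GALT6 (chr1:1231987-1232236, plus strand) has in capitals the 169 bases between its start and that of the gene SDF4, which is transcribed the other way.
H1FX: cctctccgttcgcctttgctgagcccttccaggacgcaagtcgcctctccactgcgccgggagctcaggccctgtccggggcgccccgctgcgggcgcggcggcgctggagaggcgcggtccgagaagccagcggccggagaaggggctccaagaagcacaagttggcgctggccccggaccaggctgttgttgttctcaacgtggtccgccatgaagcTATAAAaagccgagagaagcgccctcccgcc
SFN: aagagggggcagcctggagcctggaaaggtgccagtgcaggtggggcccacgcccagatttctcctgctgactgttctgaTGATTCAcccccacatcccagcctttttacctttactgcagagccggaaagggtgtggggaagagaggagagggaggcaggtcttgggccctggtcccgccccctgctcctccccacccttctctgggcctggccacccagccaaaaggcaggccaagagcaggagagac
TAF7: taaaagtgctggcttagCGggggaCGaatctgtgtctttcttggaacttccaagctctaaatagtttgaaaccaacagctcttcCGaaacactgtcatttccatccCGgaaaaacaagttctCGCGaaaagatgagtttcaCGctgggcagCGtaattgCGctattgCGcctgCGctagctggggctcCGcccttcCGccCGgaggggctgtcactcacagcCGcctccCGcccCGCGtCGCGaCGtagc
SOX4: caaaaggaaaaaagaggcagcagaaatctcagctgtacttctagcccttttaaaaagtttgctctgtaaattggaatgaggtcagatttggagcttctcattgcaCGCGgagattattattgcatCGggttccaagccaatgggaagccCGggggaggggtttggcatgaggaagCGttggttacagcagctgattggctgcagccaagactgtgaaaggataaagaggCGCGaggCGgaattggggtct
B3GALT6: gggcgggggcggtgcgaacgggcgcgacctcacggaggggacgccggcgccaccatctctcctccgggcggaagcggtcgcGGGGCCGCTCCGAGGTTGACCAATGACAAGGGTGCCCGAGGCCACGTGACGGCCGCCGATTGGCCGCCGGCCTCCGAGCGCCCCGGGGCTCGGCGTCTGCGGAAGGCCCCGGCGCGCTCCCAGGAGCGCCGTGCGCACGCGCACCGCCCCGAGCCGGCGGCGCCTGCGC
The TAF7 stretch holds CG at 1.08 times the number its base composition gives and the SOX4 stretch at 0.589 times, while the B3GALT6 stretch is 79.6% G and C. The SFN stretch, with 3 CG dinucleotides (0.122 times), is the poorest of the 5.

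Library totals ran from 15404944 to 29236703 fragments in K562 and from 12151495 to 12811688 reads in HEL, and a count of 0 allows up to 3 counts, or 0.103 to 0.247 CPM. The single-exon genes together took 1.65% to 2.15% of a K562 library and 2.04% to 2.08% of a HEL library. DOT1L fell from 270 and 256 CPM in K562 controls to 176 to 186 CPM in its KO, and from 97.5 and 87.4 to 29.1 and 30.0 CPM in the HEL KD. MLLT1 fell from 214 and 219 to 153 to 157 CPM in the ENL KO. Erythroid transcripts such as GATA1 and HBG2 were present in all groups, but HBZ was at 3.49 to 4.63 CPM in HEL controls against 976 to 1080 CPM in K562 controls. Of the megakaryocytic markers, ITGA2B was at 1270 to 1310 CPM in HEL controls and 3.86 to 5.86 CPM in K562 controls. GP9 (171 to 192 CPM) and PF4 (18.3 to 18.8 CPM) were present in HEL controls and at 0 in K562 controls, and GP1BB was at 0 in both. Of 8 markers of other cells, 7 stayed at or below 2.23 CPM in HEL and in K562 controls, KRT5 at 0, while EPCAM reached 121 CPM in K562 controls and COL3A1 16.1 CPM in the DOT1L KO. CPM values from here on are scaled by TMM factors, except where the membership rule is meant.

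Single-exon genes were higher in DOT1L-deficient than in ENL-deficient K562 cells more often than they were lower. In K562 DOT1L KO against ENL KO, 111 of 199 single-exon genes tested passed an adjusted p of 0.05 (55.8%; over all 14301 genes tested 60.2% passed), by the quasi-likelihood test of edgeR, with p-values adjusted over all genes by the Benjamini-Hochberg method. Of these, 73 were higher in the DOT1L KO (36.7% of those tested against 31.8% of all genes) and 38 lower (19.1% against 28.3%). Genes with introns under the same rule went the other way, with 2863 higher and 3428 lower of 10293. The median log2 difference was 0.10 in single-exon genes, -0.05 in genes with introns and 0.00 over all genes. Where an absolute log2 change of at least 1 was asked as well, 19 were higher and 5 lower (9.55% and 2.51%), but rises then outnumbered falls in the other sets too, with 875 and 226 genes with introns and 2198 and 546 of all genes (15.4% and 3.82%). The opposite direction in genes with introns was thus seen over calls of any size but not among these larger ones.

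Against control and at any size of change, the calls of the DOT1L KO were split nearly evenly by direction, and those of the ENL KO were mostly falls. The DOT1L KO changed 98 of 199 (49.2%, background 51.1%), 52 higher and 46 lower, with a median log2 change of 0.07. The ENL KO changed 80 of 199 (40.2%, background 41.0%), 25 higher (background 18.8%) and 55 lower (background 22.2%), with a median of -0.07. Both contrasts share the 2 control libraries. In HEL, the DOT1L KD changed 94 of 186 (50.5%, background 55.0%), 55 higher (background 27.0%) and 39 lower (background 28.0%), with a median of 0.06. With DESeq2 the HEL count was 57. At an absolute log2 change of at least 1 the calls of the single-exon genes held more falls than rises in each depletion. Among DOT1L KO calls 2 rose and 13 fell, where of all genes 1680 rose (11.7%) and 585 fell (4.09%) and of genes with introns under the same rule 616 rose and 310 fell. ENL KO calls of that size were 1 rise and 16 falls (all genes 2.89% and 8.11%), and HEL calls 5 rises and 8 falls (3.37% and 2.47%). Of genes with introns under the same rule, 155 rose and 582 fell in the ENL KO. In HEL 180 of them rose and 209 fell (1.76% and 2.04%), so falls outnumbered rises there as well. Genes that had entered through K562 alone gave 9 of the 13 falls and the 2 rises of that size in the DOT1L KO. In the ENL KO they gave 10 of the 16 falls and the 1 rise. Genes that had entered through HEL alone gave 5 of the 8 falls and 0 rises in HEL. Their control level in that line admitted them, so these falls are not independent of the rule. At any size of change, the share that changed was close to the background in each comparison. Libraries of the 2 groups did not overlap in 139 (DOT1L KO, background 68.1%), 116 (ENL KO, 59.6%) and 118 (DOT1L KO against ENL KO, 63.3%) of 199 genes and in 128 of 186 in HEL (75.9%). Genes that had entered through K562 alone were tested in HEL in 39 cases, and 11 rose and 1 fell there. Those that had entered through HEL alone were tested in K562 in 23 cases, and 7 rose and 0 fell in the DOT1L KO. By the rule, these genes are low in the controls of the line where they were tested, so the direction of their changes is not independent of how they were chosen.

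The lists by role that follow hold few genes, were not tested as groups, and are described by their counts. The shares of all genes to read them against are 26.9% higher and 24.2% lower for the DOT1L KO, 18.8% and 22.2% for the ENL KO, 27.0% and 28.0% for HEL, and 31.8% and 28.3% between the knockouts.

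**Figure D1:**
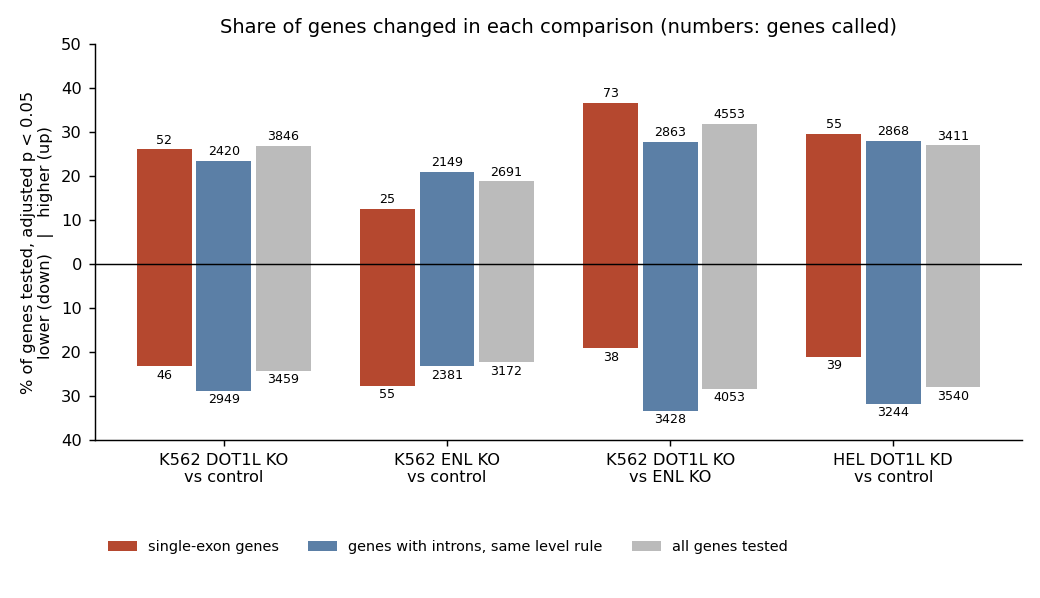
Bars give the percentage of genes tested that were higher (upwards) or lower (downwards) at an adjusted p of 0.05 in 4 comparisons, for single-exon genes, genes with introns under the same level rule, and all genes tested, with the number of genes above or below each bar. In the ENL KO 55 single-exon genes were lower and 25 higher, and in the DOT1L KO against the ENL KO 73 were higher and 38 lower.

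By class, 70 of 136 protein-coding genes tested changed in the DOT1L KO (36 higher, 34 lower), 15 of 29 noncoding genes (9 higher, 6 lower) and 6 of 21 pseudogenes (3 higher, 3 lower). In the ENL KO, 42 protein-coding genes fell and 18 rose, and in HEL 31 fell and 42 rose. Genes shorter than the median of the set rose in HEL in 29 cases and fell in 12, whereas the longer ones rose in 26 and fell in 27. In the DOT1L KO both length classes split nearly evenly, with 23 and 24 among the shorter and 29 and 22 among the longer. Leaving out the 33 genes whose exon overlaps an exon of another gene, an alternative chosen after seeing the data, left 82 of 167 changed in the DOT1L KO (43 higher), 67 in the ENL KO (20 higher), 96 in the comparison of knockouts (65 higher) and 79 of 156 in HEL (46 higher).

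TAF7 codes for a subunit of TFIID, the complex that recognises core promoters, and is the only gene of the list for that complex in the set. It lies at chr5:141318490-141320784 on the minus strand. Its level was 127 and 126 CPM in K562 controls, 99.7, 112 and 97.4 CPM in the DOT1L KO and 91.2, 87.7 and 92.2 CPM in the ENL KO. In HEL it was 34.4 and 37.9 CPM in controls and 67.7 and 72.5 CPM in the KD. All knockout libraries lay below the controls in K562, and both KD libraries lay above them in HEL. The log2 change was -0.30 (SE 0.0645, adjusted p 0.00164) in the DOT1L KO, -0.49 (SE 0.065, adjusted p 4.62e-05) in the ENL KO and 0.95 (SE 0.0637, adjusted p 1.52e-18) in HEL. The HEL change exceeded that of the K562 DOT1L KO by 1.27 (SE 0.101, adjusted p 2.16e-09), in a joint fit where cell line, means of depletion (KD or KO) and counting unit (reads or fragments) all change at once and cannot be told apart. Of 16 TFIID subunits with introns, 2 rose and 4 fell in the DOT1L KO, 5 rose and 2 fell in the ENL KO, and of 14 tested in HEL 2 rose and 9 fell.

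JUN, a subunit of the AP-1 transcription factor, rose in both DOT1L depletions and fell in the ENL KO. Its K562 levels were 42.9 and 41.1 CPM in controls, 54.9, 52.8 and 54.0 CPM in the DOT1L KO and 29.9, 29.2 and 29.1 CPM in the ENL KO, with no overlap between groups. In HEL it went from 12.1 and 12.1 to 20.5 and 23.4 CPM. The log2 changes were 0.36 (adjusted p 0.000474), -0.51 (adjusted p 4.17e-05) and 0.86 (adjusted p 2.59e-09), and the DOT1L KO exceeded the ENL KO by 0.87 (SE 0.0603, adjusted p 3.02e-08). JUNB did not pass the threshold in either knockout (0.03 and -0.19), and its log2 change of -0.17 in HEL lost the call under DESeq2 (adjusted p 0.246). CEBPD, a C/EBP factor of myeloid and inflammatory programmes, was at 20.8 and 17.4 CPM in K562 controls, 7.13, 7.13 and 7.29 CPM in the DOT1L KO and 10.3, 12.8 and 10.3 CPM in the ENL KO. It fell by 1.41 (SE 0.12) and 0.77 (SE 0.118) on the log2 scale, and it was 0.636 to 1.19 CPM in HEL. Among partners of these factors that have introns, 5 rose and 5 fell of 16 in the DOT1L KO, 1 rose and 7 fell in the ENL KO, and 4 rose and 4 fell of 15 in HEL. JUND, with several entries and hence outside the set, fell by 0.52, 0.32 and 0.69 in the 3 depletions, and CEBPB by 0.89 in the ENL KO.

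SOX4, a transcription factor of progenitor cells, entered the set by its HEL level alone. It was at 2.14 and 1.70 CPM in K562 controls, at 2.68, 3.38 and 3.31 CPM in the DOT1L KO, and at 0.145, 0.243 and 0.13 CPM in the ENL KO. In HEL it went from 11.0 in both controls to 4.06 and 6.26 CPM. The ENL KO libraries stood far below all others, near the floor of 3 counts (0.142, 0.143 and 0.195 CPM in those libraries). The sizes of the log2 changes that use the ENL KO thus rest on very few fragments. The log2 change was -3.40 (SE 0.361, adjusted p 5.68e-06) in the ENL KO and -1.09 (SE 0.165, adjusted p 1.44e-07) in HEL. The rise of 0.70 in the DOT1L KO (adjusted p 0.013) was lost without control library 2 (0.55, adjusted p 0.125) and under DESeq2 (adjusted p 0.0574). The knockouts differed by 4.11 (SE 0.306, adjusted p 6.41e-08).

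The list of single-exon transcription factors outside AP-1 and C/EBP includes SOX4 and also holds IER5 and IER5L. Of its 8 genes tested in K562, 5 fell, SOX4 among them, and 0 rose in the ENL KO (background 22.2% and 18.8%). In the comparison of knockouts 6 were higher and 2 lower in the DOT1L KO (background 31.8% and 28.3%). SOX12 rose in the DOT1L KO by 0.35, a call lost without control library 2 (adjusted p 0.12), and in HEL by 0.53 (adjusted p 1.14e-07). FOXL2 fell in the DOT1L KO from 46.2 and 47.3 CPM to 28.2 to 30.2 CPM (-0.68, adjusted p 9.32e-05). MAFA, a large MAF factor, fell in all 3 depletions, by 0.98, 1.68 and 1.01 on the log2 scale, at 3.97 to 5.39 CPM in controls. FOXC1 was at 0 in every K562 library and fell in HEL from 7.91 and 8.49 to 3.34 and 4.39 CPM (-1.08, adjusted p 1.61e-06). The immediate early gene IER5 was at 0.11 in the DOT1L KO, which did not pass, -0.37 in the ENL KO (adjusted p 0.00394) and 0.51 in HEL (adjusted p 4.01e-09). IER5L fell in the ENL KO by 1.65, from 6.04 and 5.20 to 1.24 to 2.04 CPM.

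**Figure D2:**
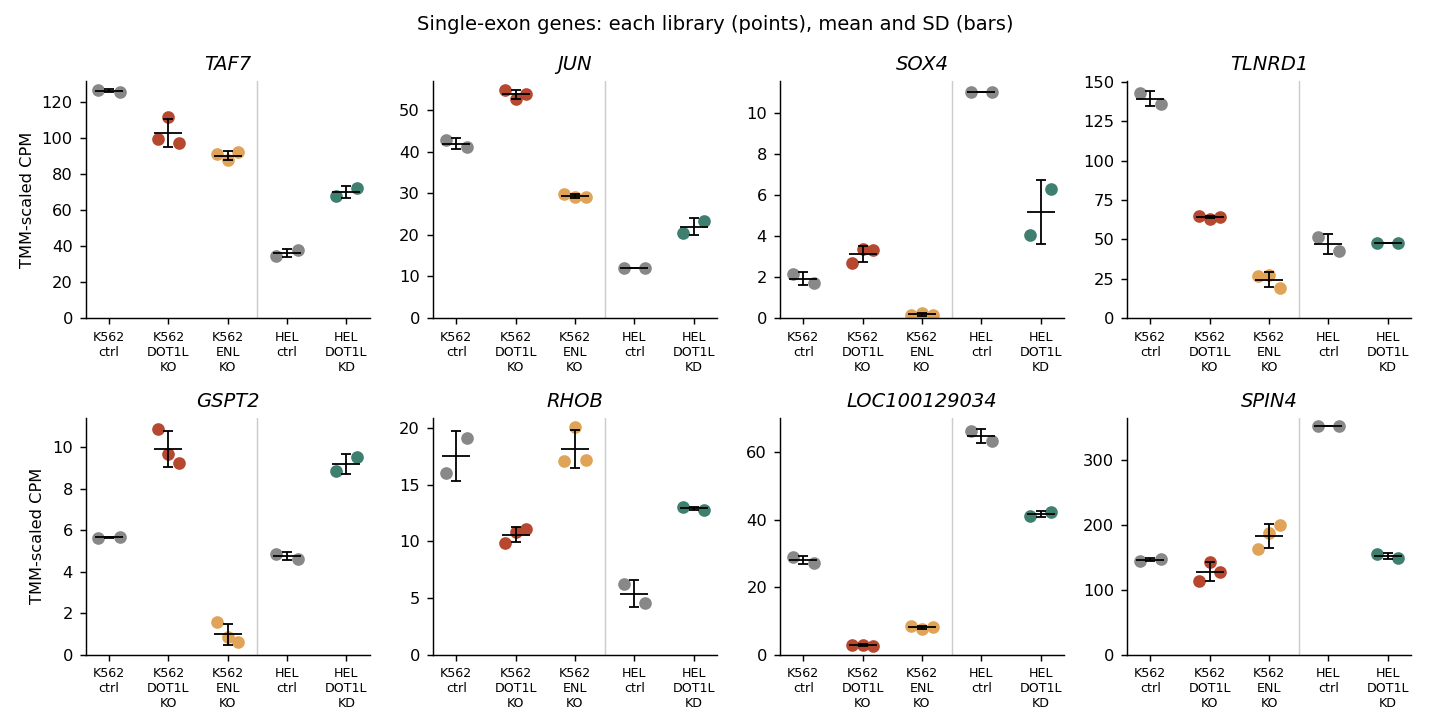
Points are single libraries of 8 genes, in TMM-scaled CPM on a linear axis from 0, with horizontal bars for the mean and vertical bars for the SD, by group (2 or 3 libraries each). SOX4, TLNRD1 and GSPT2 are lowest in the ENL KO, and TAF7, JUN, GSPT2 and RHOB are higher in the HEL KD than in HEL controls.

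Of 4 single-exon genes for small GTPases and signalling, 0 rose and 3 fell in the DOT1L KO, 1 rose and 1 fell in the ENL KO, and 1 rose and 2 fell in HEL. RHOB, a small GTPase that is induced by stress, was at 16.0 and 19.1 CPM in K562 controls, 9.86, 10.8 and 11.1 CPM in the DOT1L KO and 17.1, 20.1 and 17.2 CPM in the ENL KO. In HEL it rose from 6.23 and 4.52 to 13.0 and 12.8 CPM. The log2 change was -0.73 (SE 0.111, adjusted p 0.000105) in the DOT1L KO, 0.05 in the ENL KO and 1.26 (SE 0.153, adjusted p 6.62e-10) in HEL, and the lines differed by 2.01 (SE 0.198, adjusted p 4.94e-08). TLNRD1, an actin-bundling relative of talin, was at 143 and 136 CPM in K562 controls, 64.6, 63.2 and 64.4 CPM in the DOT1L KO and 26.8, 27.4 and 19.1 CPM in the ENL KO, but at 42.8 to 51.7 CPM in all 4 HEL libraries. It fell by 1.12 (SE 0.0972) and 2.5 (SE 0.104) on the log2 scale in the knockouts, and its change in HEL was 0.01 (SE 0.0691, adjusted p 0.867). SFN, the 14-3-3 sigma protein of the cell cycle checkpoint, fell from 9.58 and 7.52 CPM to 1.64, 1.93 and 1.70 CPM in the DOT1L KO and to 2.80, 1.95 and 1.37 CPM in the ENL KO, and was at 0 in all HEL libraries. Its log2 change was -2.27 and -2.03, and the knockouts did not differ beyond the threshold (-0.24, SE 0.242).

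Of the G protein-coupled receptors, 8 of which were in the set and 6 tested in K562, 3 fell and 1 rose in each knockout. ADRA2C, an alpha-2 adrenergic receptor, fell from 17.0 and 14.6 CPM to 4.97 to 6.09 CPM in the DOT1L KO (-1.50, SE 0.13) and 2.34 to 3.21 CPM in the ENL KO (-2.5, SE 0.147), and was at 0 in HEL. FZD2, a WNT receptor, fell in the ENL KO from 13.4 and 10.4 CPM to 3.91 to 5.36 CPM (-1.33, adjusted p 1.66e-05) and was at 0.10 in the DOT1L KO on the log2 scale (adjusted p 0.596). P2RY1, the ADP receptor of platelets, fell in HEL from 241 and 232 CPM to 138 and 141 CPM (-0.76, SE 0.0382, adjusted p 1.83e-23), and in the ENL KO it rose by 0.26, a call lost without control library 2. GPR174 fell in HEL from 23.5 and 22.0 to 11.3 and 11.1 CPM (-1.02, adjusted p 1.88e-11) and was at or below 0.189 CPM in K562. RPP25, a protein subunit of the RNase P family, fell in the ENL KO from 12.9 and 15.1 to 4.04 to 4.48 CPM (-1.71, SE 0.115, adjusted p 7.21e-08) and was at 0.25 in the DOT1L KO (adjusted p 0.0512). FJX1, the human relative of a planar polarity protein, fell in the ENL KO by 1.75 (SE 0.126), from 12.4 and 13.5 to 3.70 to 4.11 CPM.

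Of 5 single-exon genes for linker histones and other chromatin proteins tested in HEL, 4 rose and 1 fell, and in K562 2 rose and 1 fell in the DOT1L KO and 1 rose and 2 fell in the ENL KO. H1FX, a linker histone whose exon overlaps one of its antisense gene, went from 137 and 133 CPM to 178 and 188 CPM in the KD (0.43, SE 0.0406, adjusted p 2.33e-13). H2AFX, the histone variant phosphorylated at DNA breaks, went from 110 and 106 to 172 and 174 CPM (0.68, SE 0.0418, adjusted p 6.24e-20). H1F0, a linker histone of differentiated cells, was at 871 and 865 CPM in HEL controls and 1030 CPM in both KD libraries (0.25, SE 0.0273, adjusted p 3.75e-11), whereas K562 libraries held at most 0.136 CPM. In the DOT1L KO neither H1FX (0.21, adjusted p 0.171) nor H2AFX (0.12, adjusted p 0.141) passed the threshold, and H1FX fell in the ENL KO (-0.55, adjusted p 0.00261). TSPYL1 and TSPYL4, neighbours on chromosome 6 that belong to the nucleosome assembly family, moved apart in the DOT1L KO. TSPYL1, whose exon overlaps one of DSE on the opposite strand, fell by 0.46 (adjusted p 0.000879), and TSPYL4 was 0.34 higher, a call lost without control library 2 (adjusted p 0.0706). In HEL TSPYL4 rose by 0.41 and TSPYL1 fell by 0.25, the latter call being lost without HEL control library 1 (adjusted p 0.0764). NAP1L5, an imprinted gene of the same family, rose in both knockouts, from 7.58 and 7.66 CPM to 12.9 to 14.8 CPM (0.85) and 11.9 to 13.2 CPM (0.70), and did not pass in HEL (-0.17, adjusted p 0.239).

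SPIN4, a reader of histone methylation of the Spindlin family, showed the smallest adjusted p of the set in HEL. It went from 352 and 353 CPM in controls to 155 and 149 CPM in the KD (-1.21, SE 0.0355, adjusted p 1.23e-33). In K562 it was at 145 and 148 CPM in controls and 113, 143 and 128 CPM in the DOT1L KO (-0.20, adjusted p 0.103). Its higher level in the ENL KO (0.32) lost the call without control library 1 (adjusted p 0.0925), control library 2 (adjusted p 0.0655) or ENL KO library 2 (adjusted p 0.0547). ZBTB42, a zinc finger factor, fell in HEL from 5.27 and 6.11 to 1.83 and 2.11 CPM (-1.53, SE 0.234, adjusted p 2.01e-07) with a log2 change of 0.02 in the DOT1L KO. WDR5B, a copy of the WDR5 subunit of histone H3 lysine 4 methyltransferases, rose in both knockouts, by 0.69 and 0.69, and fell in HEL by 0.79 (adjusted p 2.26e-07).

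Of 6 genes for proteins of ubiquitin transfer and trafficking, 5 were higher in the DOT1L KO than in the ENL KO and 0 lower (background 31.8% and 28.3%). USP27X, a deubiquitinase on the X chromosome, rose in the DOT1L KO from 5.44 and 5.91 to 10.4 to 11.7 CPM (0.97, SE 0.123, adjusted p 2.08e-05). KBTBD6 and KBTBD7, adjacent genes on chromosome 13 whose products act together as substrate adaptors of a CUL3 ubiquitin ligase, fell in HEL from 29.1 and 32.1 to 18.3 and 18.5 CPM and from 36.5 and 31.3 to 25.9 and 25.3 CPM. Their log2 changes were -0.74 (adjusted p 1.03e-09) and -0.40 (adjusted p 5.53e-05). MAGEH1, of the MAGE family of ligase partners, rose in the DOT1L KO from 4.32 and 3.88 to 7.22 to 7.84 CPM (0.87, adjusted p 0.00191) and fell in the ENL KO to 1.17 to 2.51 CPM (-1.04, adjusted p 0.00294). In HEL it fell from 16.3 and 16.5 to 6.68 and 8.05 CPM (-1.16, adjusted p 1.19e-10).

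A mixed list of 10 genes held the enzymes B3GALT6, DOLK, PIGM, FUT4 and GLUD2, the membrane proteins TMEM158, TMEM185B and TMEM203, the transcription factor THAP11 and the nucleolar protein IMP3. Of these, 5 rose and 1 fell in the DOT1L KO, 2 rose and 3 fell in the ENL KO, and of 8 tested in HEL 3 rose and 1 fell. The 5 rises were those of B3GALT6, DOLK, PIGM, TMEM158 and TMEM185B, and the fall that of THAP11 (-0.36, adjusted p 0.00086). The call of TMEM158 (0.24) was lost without DOT1L KO library 2 (adjusted p 0.136) or 3 (0.0781) and without control library 1 (0.0691) or 2 (0.307), and that of TMEM185B (0.21) without control library 1 (adjusted p 0.092) or 2 (0.116). PIGM, a mannosyltransferase of the glycosylphosphatidylinositol anchor, rose in the DOT1L KO from 16.4 and 15.9 to 30.9 to 33.2 CPM (0.99, SE 0.0889, adjusted p 7.35e-07) and by 0.42 in the ENL KO. Its fall of 0.25 in HEL was lost under DESeq2 (adjusted p 0.126). B3GALT6, a galactosyltransferase of proteoglycan linkers, rose by 0.54 in HEL (13.3 and 11.8 to 16.5 and 19.9 CPM, adjusted p 0.000106). In the DOT1L KO it was higher by 0.27, a call lost without control library 2 (adjusted p 0.0819). DOLK, the kinase that makes dolichol phosphate, rose by 0.39 in the DOT1L KO (adjusted p 0.00182). In HEL, where it stood at 2.00 to 3.50 CPM, its change of 0.61 lost the call under DESeq2 (adjusted p 0.275). Among RNA-binding proteins, PURA, a binder of purine-rich single strands, fell in all 3 depletions. It went from 50.9 and 52.7 to 36.1, 39.0 and 37.4 CPM in the DOT1L KO (-0.47, adjusted p 0.000111), and in HEL from 45.5 and 42.0 to 27.1 and 30.3 CPM (-0.61, adjusted p 1.67e-09). Its fall of 0.25 in the ENL KO lost the call without control library 1 (adjusted p 0.0543) or 2 (adjusted p 0.114). Its paralogue PURB was at -0.04, -0.01 and -0.04 and passed in none. PCBP1, the most abundant messenger of this list, was at 338 to 632 CPM in all libraries and fell in HEL by 0.25.

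The heat shock protein HSPA6 and the DnaJ protein DNAJC30 rose in HEL, both at low counts. HSPA6 went from 0.639 and 0.476 to 1.35 and 2.11 CPM (1.62, SE 0.42, adjusted p 0.000984), a call lost under DESeq2 (adjusted p 0.0514) and without KD library 2 (1.26, adjusted p 0.0563). DNAJC30 went from 1.6 and 1.59 to 4.61 and 4.55 CPM (1.52, SE 0.256, adjusted p 1.43e-06). In the DOT1L KO neither passed, with 0.22 and 0.26. HSPA1A and HSPA1B, which are listed at several loci and so are outside the set, fell in the DOT1L KO by 0.83 and 0.90, and averaged at most 0.239 CPM in either HEL group. Reads that fit several loci can be split or dropped, so these HEL values need not show the level of expression, which was not tested. Of 20 heat shock genes with introns, 2 rose and 10 fell in the DOT1L KO, 3 rose and 5 fell in the ENL KO, and of 19 tested in HEL 8 rose and 6 fell.

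Copies of spliced genes were set beside their relatives with introns. The 31 pairs were drawn up by gene name after the data had been seen, and reads that fit both copies can be split or dropped. Among 15 protein-coding copies in the DOT1L KO, copy and relative both changed in 4 pairs, 2 in the same and 2 in opposite directions, the copy alone in 3, the relative alone in 4, and neither in 4. In the ENL KO the copy alone changed in 3 and the relative alone in 6 of 15. In HEL, of 13 pairs tested, 4 changed the same way and 2 in opposite ways. GSPT2, a copy of the translation termination factor gene GSPT1, rose in the DOT1L KO from 5.63 and 5.68 to 10.9, 9.66 and 9.23 CPM (0.81, SE 0.172, adjusted p 0.00144). It fell in the ENL KO to 1.55, 0.827 and 0.586 CPM (-2.46, SE 0.242, adjusted p 2.78e-06). In HEL it rose from 4.87 and 4.6 to 8.83 and 9.52 CPM (0.95, SE 0.168, adjusted p 3.65e-06). GSPT1 changed by -0.16 (adjusted p 0.0107), -0.06 (adjusted p 0.369) and -0.21 (adjusted p 1.34e-06). GLUD2, a copy of the glutamate dehydrogenase gene GLUD1, rose in the ENL KO from 11.0 and 9.51 to 30.0, 29.4 and 27.8 CPM (1.51, SE 0.0958, adjusted p 4.19e-08), while GLUD1 fell by 0.34 (adjusted p 0.000166). CHML, which lies inside OPN3 on the same strand, rose in the DOT1L KO by 0.43 (adjusted p 0.00425) and CHM, which likewise codes for a Rab escort protein, fell by 0.65 (adjusted p 0.000203). In HEL CHML fell by 0.57 and CHM rose by 0.39. The host OPN3 rose by 0.505 in the DOT1L KO (adjusted p 0.00036) and was at 0.098 in HEL (adjusted p 0.611). Its part in the counts of CHML was not tested. ATXN7L3B and ATXN7L3 rose together, by 0.36 and 0.45 in the DOT1L KO and by 0.32 and 0.21 in HEL.

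Of 13 pseudogenes tested in the DOT1L KO with their relatives, 2 pairs changed the same way, 0 in opposite ways, and 5 pairs had no change past the threshold. Whether each of these pseudogenes is a processed copy was not checked. PPIAP46, a pseudogene of the cyclophilin gene PPIA at chr15:74361552-74362041, was at 6.09 and 4.59 CPM in K562 controls and 6.27, 6.72 and 7.29 CPM in the DOT1L KO. It was at 0.0966, 0.195 and 0.0651 CPM in the ENL KO, which is 2, 4 and 1 fragments. Its fitted log2 change there was -5.37 (SE 0.32, adjusted p 2.15e-08), a value that depends on the prior count added to so few fragments, and the largest of the set in either direction in the comparisons with control, while PPIA changed by -0.07 (adjusted p 0.369). It lies inside CYP11A1 on the opposite strand, and CYP11A1 averaged at most 0.296 CPM in any K562 group. HTATSF1P2 rose by 0.44 and 0.34 in the knockouts with HTATSF1 (0.21 and 0.25). In HEL, where HTATSF1P2 was at 0.397 to 1.19 CPM, HTATSF1 fell by 0.83 (adjusted p 1.83e-18).

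**Figure D3:**
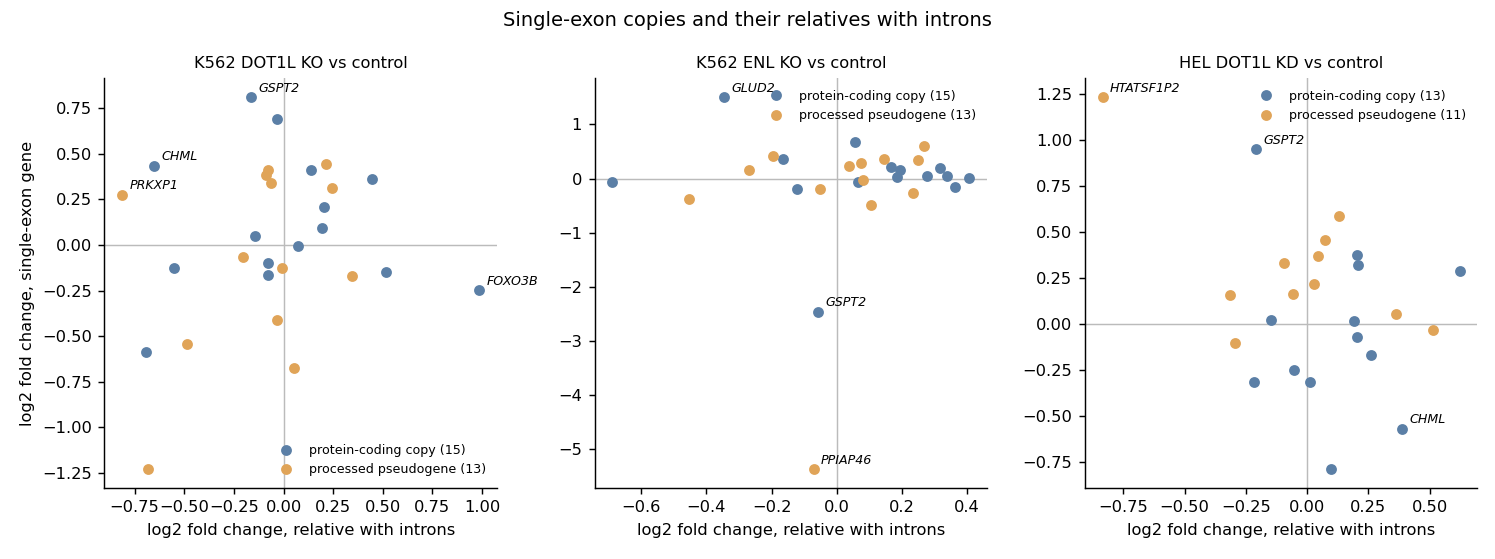
Points are pairs of a single-exon copy (vertical axis, log2 fold change) and its relative with introns (horizontal axis, log2 fold change) in 3 comparisons. Colours mark protein-coding copies and pseudogenes, with the numbers of pairs in the legends. The legends call the pseudogenes processed, which was not checked for each. In the ENL KO, GSPT2, GLUD2 and PPIAP46 lie at -2.46, 1.51 and -5.37 while their relatives lie between -0.34 and -0.06.

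A divergent partner, a gene of the opposite strand whose start lies within 1000 bases upstream, was found for 32 of the 210 genes (15.2%), a share close to the 16.7% of 10516 genes with introns. In the DOT1L KO, 14 of these 32 rose (43.8%, background 26.9%) and 1 fell (3.12%, background 24.2%), with a median log2 change of 0.24. Among these rises, the calls of B3GALT6, TBCC, TSPYL4, RRS1 and SOX12 were lost without control library 2 (adjusted p 0.0706 to 0.12). Single-exon genes without such a partner rose in 38 and fell in 45 of 167 cases, and genes with introns and a partner rose in 319 and fell in 438 of 1734. In the ENL KO 6 of the 32 rose and 4 fell, and in HEL 11 of 31 rose and 5 fell. This subset was examined after the data had been seen, and the difference between the subsets was not tested. KDM7A-DT, a noncoding RNA that starts 320 bases from KDM7A, rose in the DOT1L KO from 10.9 and 9.70 to 24.0, 23.4 and 24.2 CPM (1.21, SE 0.0966, adjusted p 2.21e-07) while KDM7A was at 0.14 on the log2 scale. EPM2AIP1, whose partner starts 46 bases away, rose from 54.5 and 60.5 to 85.6, 92.3 and 108 CPM (0.73, SE 0.101, adjusted p 4.32e-05). LOC101930085, 71 bases from HERPUD2, rose from 12.9 and 12.1 to levels of 20 to 21.6 CPM (0.75, adjusted p 9.97e-06), and HERPUD2 was at -0.51. ANKRD63, which has no such partner, had the largest rise of the set in the DOT1L KO, from 6.93 and 7.57 to 20.2, 18 and 20 CPM (1.42, SE 0.109, adjusted p 1.58e-07), and fell in the ENL KO to 4.04 to 4.69 CPM (-0.70, adjusted p 0.000619). In the 27 pairs where both genes were tested in the DOT1L KO, 4 changed the same way, 1 in opposite ways, the single-exon gene alone in 7, the partner alone in 8 and neither in 7.

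**Figure D4:**
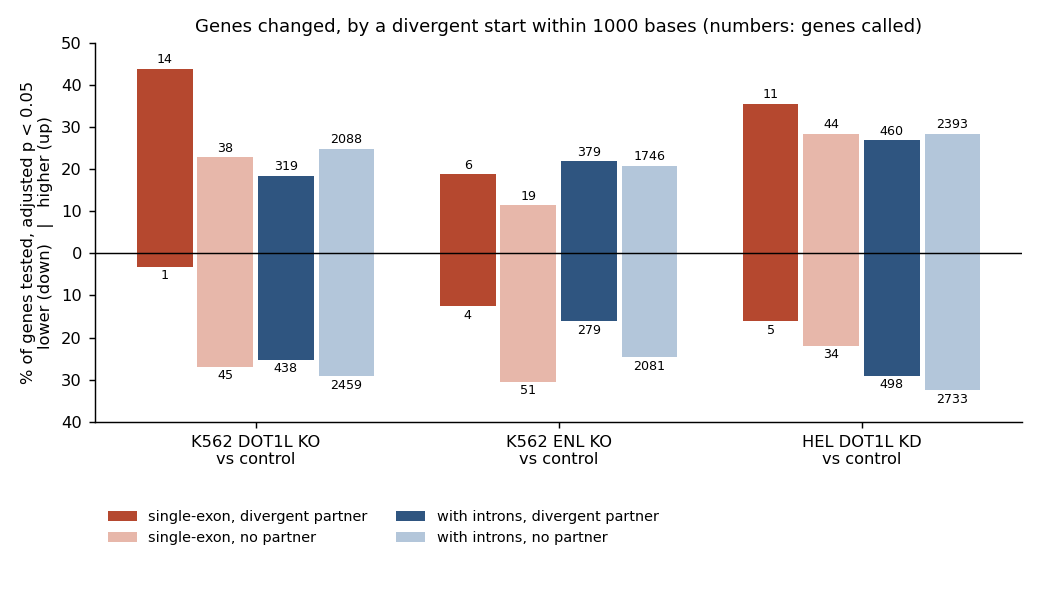
Bars give the percentage of genes tested that were higher (upwards) or lower (downwards) at an adjusted p of 0.05, split by whether a gene of the opposite strand starts within 1000 bases upstream, for single-exon genes and genes with introns, with gene numbers at the bars. In the DOT1L KO the 32 single-exon genes with a partner show 14 higher and 1 lower.

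The largest fall of the set in the DOT1L KO was that of LOC100129034, a noncoding gene. It lies at chr9:124353473-124359184 on the plus strand, inside the proteasome gene PSMB7 of the opposite strand and overlapping one of its exons. It was at 28.9 and 27.3 CPM in K562 controls, 2.91, 3.01 and 2.56 CPM in the DOT1L KO, 8.60, 7.64 and 8.08 CPM in the ENL KO, 66.4 and 63.3 CPM in HEL controls and 41.1 and 42.4 CPM in the KD. The groups of each line did not overlap. The log2 change was -3.31 (SE 0.109, adjusted p 6.94e-11), -1.79 (SE 0.0989, adjusted p 9.91e-09) and -0.64 (SE 0.0612, adjusted p 6.51e-13), and PSMB7 changed by -0.17, 0.00 and 0.23. The libraries mark strand, but the use of strand in counting is not given in the sources used here, so reads of the 2 genes may be mixed. JMJD1C-AS1, antisense to JMJD1C, fell in the DOT1L KO by 1.51 (6.23 and 4.97 to 1.70 to 2.09 CPM), where JMJD1C fell by 0.74 (adjusted p 1.36e-06), but not in the ENL KO (0.26, adjusted p 0.201). Genes that lie inside a longer gene of the same strand can take up reads of its unspliced RNA, and of 17 such genes 6 changed with their host in the same direction in the DOT1L KO and 0 in the opposite one. In the ENL KO the numbers were 3 and 0 of 17, and in HEL 1 and 1 of 12. MGC12916 fell by 1.66 (adjusted p 4.97e-08) inside HS3ST3B1 (-0.60, adjusted p 3.74e-05), and KIAA0754 by 1.07 (adjusted p 6.83e-07) inside MACF1 (-0.85, adjusted p 2.92e-06). RefSeq holds KIAA0754 only as a synonym of MACF1, so this pair, counted among the 6, may be a gene set beside part of itself. How much of these counts belongs to the host was not tested.

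Of the 29 noncoding genes tested in K562, 4 rose and 7 fell in the ENL KO (37.9% changed, background 41.0%), and of 25 tested in HEL 1 rose and 4 fell (20%, background 55.0%). ZBTB11-AS1, whose exon overlaps one of ZBTB11 on the opposite strand, rose in both knockouts, by 0.73 (DOT1L, adjusted p 0.00134) and 0.94 (ENL, adjusted p 0.000296). LOC100506730, a noncoding gene, rose in the ENL KO from 3.81 and 3.55 to 5.27, 6.67 and 7.42 CPM (0.80, SE 0.167, adjusted p 0.00174) and was at 0.11 in the DOT1L KO (adjusted p 0.619). NORAD, a cytoplasmic RNA that binds PUMILIO proteins, rose in the DOT1L KO from 462 and 437 to 555, 557 and 516 CPM (0.27, adjusted p 0.00094) and fell in the ENL KO to 377, 385 and 371 CPM (-0.25, adjusted p 0.002). In HEL it was lower by 0.14 (adjusted p 0.000149), a call lost with upper-quartile scaling (adjusted p 0.0609). KCNQ1OT1, the imprinted antisense RNA of KCNQ1, varied within the DOT1L KO (17.5, 10.9 and 26.4 CPM) and passed in neither knockout against control. RNAs of RNA polymerase III were in the set although the libraries were selected for poly(A) tails. RN7SK, the scaffold that holds P-TEFb inactive, was at 7.81 to 9.66 CPM in the DOT1L KO and 9.49 and 15.7 CPM in controls (-0.48, adjusted p 0.168), and its partner protein HEXIM1 was at -0.02 there (adjusted p 0.897). In HEL HEXIM1 fell from 73.5 and 75.5 to 54.6 and 59.9 CPM (-0.38, adjusted p 7.85e-08) and RN7SK did not pass (-0.29, adjusted p 0.33). RN7SL2, an RNA of the signal recognition particle, rose in HEL from 6.55 and 8.65 to 12.8 and 17.7 CPM (1.00, adjusted p 6.35e-08), but library 1 stood apart in every K562 group, where it held 56.0 CPM (control), 83.1 CPM (DOT1L KO) and 56.0 CPM (ENL KO) against 21.7 to 30.4 CPM in the other libraries.

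The most abundant genes of the set were the mitochondrial ribosomal RNAs. RNR2 was at 7160 CPM in both K562 controls and at 10800, 8990 and 10400 CPM in the DOT1L KO (0.49, SE 0.0813, adjusted p 0.000218), and it stood at 12200 to 13500 CPM in HEL, where its change of -0.10 lost the call without KD library 2 (adjusted p 0.119) and with upper-quartile scaling (adjusted p 0.503). RNR1 did not pass in either knockout and rose in HEL by 0.29 (adjusted p 2.62e-12). Together the 2 made up 0.816% and 0.817% of the control counts in K562 and 1.02% to 1.21% of the DOT1L KO. RNA45SN3, the precursor of cytoplasmic ribosomal RNA, fell in the DOT1L KO from 8.32 and 8.09 to 3.04 to 3.79 CPM (-1.23, adjusted p 0.00048). It was called lower in the ENL KO too, at 3.97, 6.81 and 3.31 CPM before TMM scaling. That call was lost without control library 1 (log2 change -0.734) or 2 (-0.775). How RNA without poly(A) tails entered each library was not measured, and its part in these changes was not tested.

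In DOT1L depletion of both lines, which share no library, 175 single-exon genes were tested, and 40 changed in both: 24 moved alike (60.0%) and 16 moved opposite ways. Over all genes the share in the same direction was 57.6% of 3452, and over genes with introns 56.8% of 3117. The 14 that rose in both lines included JUN, GSPT2, ATXN7L3B, B3GALT6, SOX12, TSPYL4 and LCMT2, and the 10 that fell in both included LOC100129034, MAFA, PURA, IRF2BPL and RAP2B. In the opposite group, RHOB, FAM43A, TAF7, FZD7, LOC284454 and RNF26 fell in K562 and rose in HEL. CHML, KBTBD7, MAGEH1, NORAD, OR2W3, PIGM, RNR2, SMIM10, SOX4 and WDR5B rose in K562 and fell in HEL. Calls in both lines held in every alternative fit (method, scaling, filter, block or libraries) for 8 of the 24 (ATXN7L3B, GSPT2, JUN, LCMT2, MAGEF1, LOC100129034, MAFA and PURA) and for 6 of the 16 (CHML, FAM43A, MAGEH1, RHOB, TAF7 and WDR5B). A minimum absolute log2 change of 1 was not applied here. JUN (0.359) and TAF7 (-0.298), for example, fall short of it in K562. FAM43A had the widest gap of the 16. It went from 8.32 and 5.86 to 3.82, 3.04 and 2.79 CPM in the DOT1L KO (-1.14, adjusted p 0.000132) and from 11.8 and 12 to 23.4 and 22.1 CPM in the HEL KD (0.93, adjusted p 1.47e-10), a difference of 2.1 (SE 0.218, adjusted p 1.14e-07). The difference between the lines passed the threshold in 76 of 210 single-exon genes (36.2%, background 38.9%), 45 with the higher value in HEL (background 19.8%) and 31 with the higher value in K562 (background 19.1%). Without K562 DOT1L KO library 2 the split was 36 and 37. With all libraries and an absolute log2 difference of at least 1 it was 14 (background 4.85%) and 10 (background 7.83%).

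**Figure D5:**
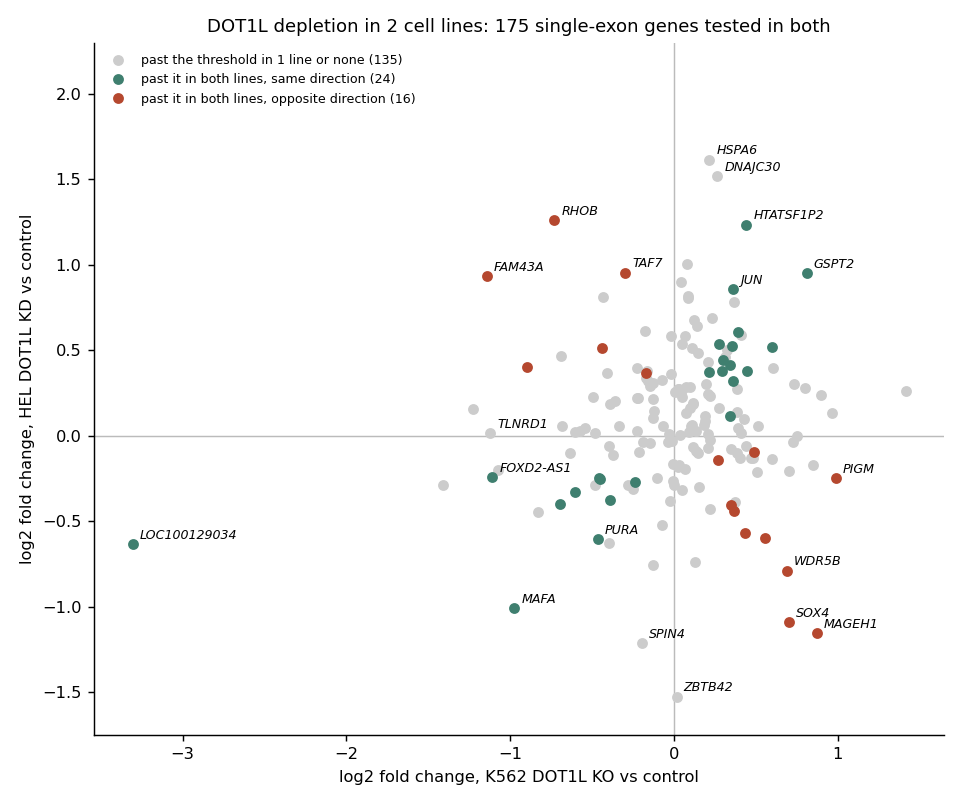
Each point is 1 of 175 single-exon genes, with the log2 fold change of the K562 DOT1L KO on the horizontal axis and of the HEL DOT1L KD on the vertical axis, coloured by whether it passed an adjusted p of 0.05 in both lines and in the same or the opposite direction. The 24 green genes moved the same way and the 16 red genes opposite ways, with RHOB, FAM43A and TAF7 at the upper left and SOX4, MAGEH1 and WDR5B at the lower right.

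In all 3 depletions 3 of 175 genes rose (1.71%, background 3.11%) and 7 fell (4.00%, background 3.12%). The K562 contrasts among these share their controls. Those that rose were HTATSF1P2, TBCC (a tubulin folding cofactor) and RRS1 (a ribosome biogenesis factor). The calls of TBCC and RRS1 in the ENL KO, at 0.19 and 0.21, were lost with upper-quartile scaling for RRS1 (adjusted p 0.0706) and under DESeq2 for TBCC (adjusted p 0.0687), and that of HTATSF1P2 in HEL under DESeq2 (adjusted p 0.249). Those that fell were FOXD2-AS1, PURA, LOC100506548, TSPYL1, MAFA, LOC100129034 and IRF2BPL. Of the 10 genes, MAFA and LOC100129034 kept all 3 calls in every alternative fit (method, scaling, filter, block or libraries). A minimum absolute log2 change of 1 was not applied to single genes. MAFA (-0.975 in the DOT1L KO) and LOC100129034 (-0.635 in HEL) fall short of it. IRF2BPL, a nuclear regulator of transcription, went from 120 and 94.7 to 74.8, 68.0 and 69.1 CPM in the DOT1L KO (-0.60, adjusted p 0.00084) and to 63.9, 60.9 and 45.7 CPM in the ENL KO (-0.91, adjusted p 4.47e-05). In HEL it went from 25.1 and 21.7 to 18 and 19.2 CPM (-0.33, adjusted p 0.00366), a call lost without HEL control library 1 (adjusted p 0.106).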

How the data were processed

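The libraries held poly(A)-selected RNA made by a strand-marking method, per the labels' protocols. The authors deposited raw whole-number counts per gene, fragment counts for K562 and read counts for HEL. The submitters' processing notes for the series name fastp 0.13.1, HISAT2 2.1.0 and featureCounts 1.6.1, and Bowtie2 2.3.4.1, without saying which step used them. Columns 2 and 3 of the K562 control were identical for each of 28131 genes and were counted as 1 library, which left 12 of 13 columns. Of the 74 samples, the others were not analysed here.

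Genes were kept with filterByExpr (minimum count 10, minimum total 15) and tested with edgeR 4.0.16 (R 4.3.3; TMM, glmQLFit, glmQLFTest), all K562 groups in 1 fit and HEL in another, with Benjamini-Hochberg adjustment over all genes tested and a threshold of 0.05. The lines were compared by the interaction in a joint fit of K562 control, DOT1L KO and HEL libraries. On simulated data the K562 DOT1L KO fit recovered 81.5% of 200 genes changed 2-fold among 13913 genes, the ENL KO fit 77% among 13933 and the HEL fit 84.5% among 12501. The floor of 3 counts covers counting error only, since PCR copies carried no molecular identifiers.

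The genes and lists were chosen with earlier results of these data known. The genes named were taken from the lists by role (members not named are in the counts), the 5 largest rises and the 5 largest falls past the threshold with no overlap of libraries in each depletion, of those that changed alike in all 3, the 5 whose least significant adjusted p was smallest, and the 3 on either side of the 5 CPM limit. The others were chosen after their values were seen, among them FAM43A, CHML, NORAD, the ribosomal RNAs, HEXIM1, EPM2AIP1, LOC101930085, KIAA0754, ATXN7L3B, TBCC, RRS1 and the partner genes. Alternatives were DESeq2 1.42.0, library size and upper-quartile scaling, no filter, a block for the replicate number, each library left out, a minimum log2 change of 1, all control columns kept, and other level rules. The minimum log2 change and the level rules were applied to the counts of changed genes, not to the calls of single genes.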

Additional observations from a re-analysis of the deposited data

Results flagged for a closer look

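The change after DOT1L depletion differed between HEL (KD) and K562 (KO) past an adjusted p of 0.05 in the joint edgeR fit for 42 of the genes described. Values are the HEL log2 change minus the K562 log2 change. Cell line, means of depletion and counting unit all differ in this contrast and cannot be told apart. The call was lost when 1 library was left out for ANKRD63 (-0.63, adjusted p 0.317, without HEL control library 2), LOC101930085 (-0.55, adjusted p 0.0574, without HEL control library 1), USP27X (-0.49, adjusted p 0.24, without HEL control library 1), HSPA6 (1.07, adjusted p 0.109, without KD library 2), LOC103344931 (0.57, adjusted p 0.109, without KD library 1) and H1FX (0.20, adjusted p 0.122, without KD library 2). It was lost under 5 or more alternatives each for CEBPD, IMP3, RNR1, TMEM185B and UQCRHL.

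The HEL value was the higher one by 2.69 in LOC100129034, 2.1 in FAM43A, 2.01 in RHOB, 1.43 in HSPA6, 1.31 in LOC284454, 1.28 in DNAJC30, 1.27 in TAF7, 1.16 in TLNRD1 and 1.14 in CEBPD. It was higher by 0.97 in FZD7, 0.88 in FOXD2-AS1, 0.76 in FOXL2, 0.73 in LOC103344931, 0.58 in THAP11, 0.57 in H2AFX, 0.56 in UQCRHL, 0.55 in RNF26, 0.52 in JUN, 0.42 in IER5, 0.25 in H1FX, 0.25 in IMP3 and 0.23 in RNR1.

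The HEL value was the lower one, with differences of -2.01 in MAGEH1, -1.78 in SOX4, -1.53 in ZBTB42, -1.46 in WDR5B, -1.22 in PIGM, -1.14 in ANKRD63, -1.14 in OR2W3, -1.01 in NAP1L5 and -1.00 in SPIN4. It was -0.98 in CHML, -0.85 in KBTBD6, -0.82 in USP27X, -0.79 in SMIM10, -0.75 in EPM2AIP1, -0.74 in LOC101930085, -0.74 in KBTBD7, -0.61 in P2RY1, -0.57 in RNR2, -0.40 in NORAD and -0.26 in TMEM185B.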

How the results depend on the processing

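Counts of changed single-exon genes stayed within 1.5 times of their value under every alternative except the following. In HEL, DESeq2 gave 57 in place of 94. A minimum absolute log2 change of 1 gave 15 in the DOT1L KO, 17 in the ENL KO, 24 between the knockouts, 13 in HEL and 24 for the difference between lines. Asking for 5 CPM in both tables left 113 genes, with 56, 42 and 65 changed in the K562 comparisons, and asking for 1 CPM gave 356 genes. Upper-quartile scaling moved the share of higher calls in HEL from 58.5% to 69.5%. Leaving out 1 library gave 75 to 108 changed genes in the DOT1L KO, 58 to 84 in the ENL KO, 97 to 113 between the knockouts, 73 to 79 in HEL and 56 to 90 for the difference between lines. Of 302 single-gene calls, 74 were lost in at least 1 alternative fit and 0 reversed. Leaving out K562 control library 2 lost 33, the most of any setting. The replicate numbers did not meet the criterion for pairing, a correlation over 0.1 in every same-numbered pair: it was 0.0531 to 0.22 in K562 and 0.000442 in HEL, and not every library was closest to its own number. All 7 K562 pairs were positive, those of library 1 at 0.144 to 0.22, and whether those libraries share a batch was not tested. The replicate block gave 118, 105, 125, 95 and 89 changed genes in the order of the comparisons above. A fold of 2 was recovered less than fully in simulation at these depths, so a missed call is no sign of an absent change.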
